A study of Homo sapiens with 15 samples.

Results

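The comparison set a pancreatic cancer cell line held in the CDK7 inhibitor YKL-5-124 for 24 h against the same line given vehicle. The cells were PATU-8988T, an established human pancreatic cancer line. The treated group was 3 libraries from cells given 100 nM YKL-5-124 for 24 h, and the control group was 3 libraries from cells given 0.1% DMSO. The labels give no time for the DMSO cells, so the length of the incubation cannot be told apart from the compound. No genetic change separates the groups, and nothing in the labels says whether the 3 libraries of a group came from separate cultures. The p-values therefore measure the spread between these libraries, which may be technical. These 6 libraries were taken from 15, which also held cells given YKL-5-124 for 4 h and cells given 100 nM THZ1, another CDK7 inhibitor, for 4 h or 24 h. Every gene that passed the low-count filter was a member, which was 14461 of the 58676 genes in the table. The line was checked against epithelial and mesenchymal markers. KRT8 and KRT18, keratins of simple epithelia, stood at 1258 and 520.0 CPM as means in DMSO, and EPCAM stood at 15.4 CPM; these marker values are counts per 1000000 (CPM) of the uncorrected library total, whereas CPM of the genes described further on are after correction by the trimmed mean of M-values. The mesenchymal markers VIM and ZEB1 were at 200.3 and 29.0 CPM. KRT19, a ductal keratin, had 0 counts in all 6 libraries, the ductal mucin MUC1 had 4 and 10 summed counts in the groups, and CDH1 averaged 0.28 CPM in DMSO and 0.948 CPM after 24 h. SOX9, a ductal transcription factor, averaged 5.67 CPM in DMSO and 4.46 CPM after 24 h. KRT19, MUC1 and CDH1 were thus absent or near 0 in a line whose simple-epithelium keratins were abundant.

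Within TFIIH, a general transcription factor, CDK7 is the kinase subunit, and there it phosphorylates the C-terminal domain of RNA polymerase II as transcription begins. With cyclin H and MAT1 it is also the CDK-activating kinase, which phosphorylates the T-loop of the cyclin-dependent kinases that drive the cell cycle. Entry into S phase depends on CDK4, CDK6 and CDK2 phosphorylating RB, which releases E2F factors to transcribe the genes of DNA replication.

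In all, 1290 genes were called higher after 24 h of YKL-5-124 (8.92% of those tested) and 1839 lower (12.7%), at an adjusted p under 0.05 by the quasi-likelihood test of edgeR. Changes of at least 2-fold were called for 589 genes upward (4.07%) and for 353 downward (2.44%). The higher calls therefore held fewer genes than the lower calls but more of the large changes. A log2 fold change is written here with its standard error (±), n = 3 libraries a group. The split depends on the scaling of the libraries: upper-quartile factors gave 1759 higher and 1382 lower, library totals 2093 and 1186, and ribosomal protein mRNAs as the reference 5125 and 199. The median of all genes was -0.04 and moved by 0.09, 0.15 and 0.58 on the log2 scale under those 3 scalings. For that reason each gene list below is read against the median of all genes. A scaling shifts all genes by nearly the same amount, so that difference can hardly move with it. Over the 49 lists with 5 or more members tested it moved by at most 0.05 between scalings. This follows from the arithmetic and is no check of the lists, whereas the counts of members called do depend on the scaling. Pairs of counts below marked as under the ribosomal protein reference are the members called higher and lower with that scaling, which turned several lists from mostly lower to mostly higher. All libraries are bulk RNA, in which fewer cells of one kind and less RNA per cell cannot be told apart.

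**Figure D1:**
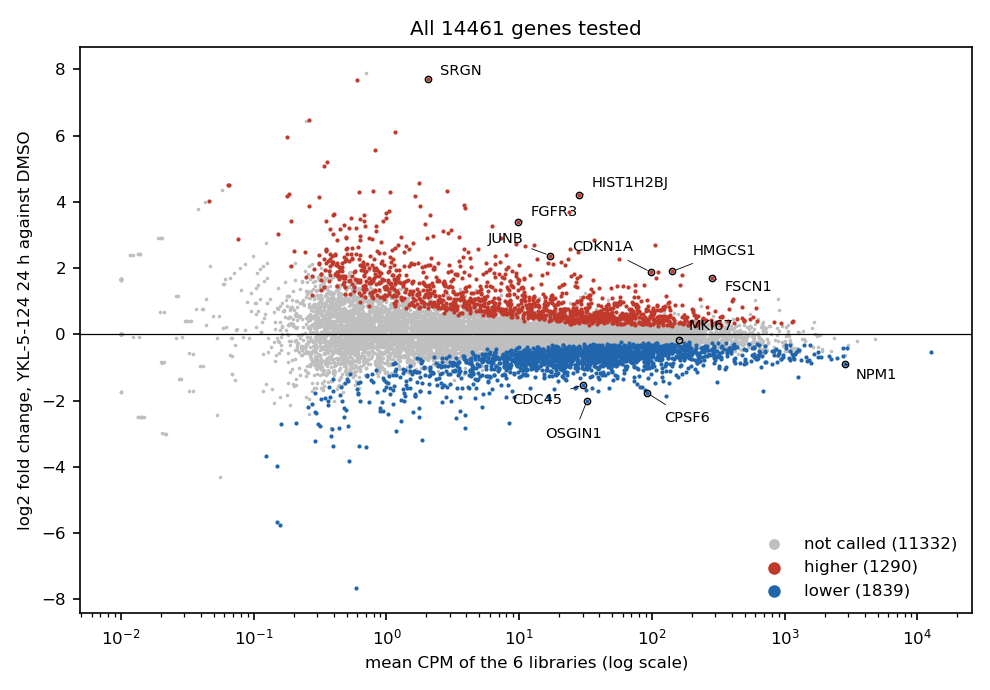
Log2 fold change of YKL-5-124 at 24 h against DMSO for each of the 14461 genes tested (vertical axis) by its mean CPM over the 6 libraries (horizontal axis, log scale, means under 0.01 drawn at 0.01). Red points are the 1290 genes called higher, blue the 1839 called lower and grey the 11332 not called; circled genes are labelled, and the large rises lie mostly at low CPM while abundant genes such as NPM1 lie among the falls.

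The 6 libraries held 18373599 to 22184092 counts. Ribosomal protein genes took 7.92 ± 1.22% of the counts after 24 h and 10.7 ± 1.43% in DMSO (mean ± SD, n = 3), and the 20 most abundant genes 6.95 ± 0.47% and 8.40 ± 0.784%. Each exact permutation p, two-sided, was 0.1, the smallest that 3 against 3 allows. The same test was run on other library quantities. It gave 0.1 for the trimmed-mean scaling factor and 0.2 for the number of genes with 1 count or more. It gave 0.4 for the long noncoding share, 0.5 for the mitochondrial share and 0.8 for total counts. DMSO replicate 2 and treated replicate 3 stood apart from their groups along one axis that held 61.4% of the variance within groups. The slope of a library's deviations from its group on log2 exonic length was 0.1404 and 0.1326 in those 2 libraries. In the rest of the 2 groups it was -0.07216 to -0.06108. What the axis reflects was not tested. MKI67, the proliferation marker, had the largest weight on that axis, followed by RRBP1 and PLEC. MKI67 had 22.3, 454 and 28.6 CPM in DMSO replicates 1 to 3 and 19.1, 20.7 and 408 CPM in the treated replicates. Its log2 fold change was -0.17 ± 1.35 (edgeR, adjusted p = 0.951). Each group held 1 high library, and the groups overlap. Without those 2 libraries, an alternative chosen after seeing the data, 778 genes were called higher and 1564 lower. Leaving out DMSO replicate 3 gave 766 higher and 1166 lower calls, leaving out DMSO replicate 1 gave 1204 lower, and leaving out treated replicate 1 gave 859 higher. Treated replicate 1 also carried leukocyte transcripts: a set of 10 myeloid and leukocyte genes, chosen after their values were seen, summed to 42.7 counts per 1000000 of the uncorrected total there, against 0.378 and 0.708 in the other treated libraries and 0.049 to 0.102 in DMSO. The set had 28, 181 and 151 counts in the 3 libraries of YKL-5-124 at 4 h (up to 7.98 per 1000000) and 98, 202 and 162 counts in those of THZ1 at 24 h (6.3 to 11.2 per 1000000). SRGN, the proteoglycan of leukocyte granules, had the highest fold change of the genes named by rule (7.70, adjusted p = 0.00995), but its treated libraries held 339, 3 and 5 counts. Without treated replicate 1 it was 3.07 with an adjusted p of 0.143.

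DNA replication genes fell together. Of 48 genes of replication origins and forks, all tested, 0 rose and 32 fell, with a median of -0.74, which is -0.71 relative to all genes. CDC45, part of the replicative helicase, had 49.6, 36.0 and 49.8 CPM in DMSO and 16.4, 15.2 and 15.3 CPM after 24 h (-1.53 ± 0.16, adjusted p = 1.38e-05). The groups lie well apart, with the highest treated library under the lowest DMSO library. MCM6, a subunit of the helicase ring, went from 173, 168 and 169 to 69.7, 65.5 and 74.7 CPM (-1.28 ± 0.08, adjusted p = 6.22e-07). MCM3 of the same ring went from 255, 237 and 250.4 to 106.5, 112 and 119.6 CPM (-1.14 ± 0.08, adjusted p = 1.05e-06). MCM2 went from 204, 189.8 and 217 to 119, 120.1 and 119.8 CPM (-0.76 ± 0.09). The 3 ring subunits were each steady within a group, so the gap between groups was wide against the spread. PCNA, the sliding clamp that holds polymerases on DNA, had 278, 206 and 269 CPM in DMSO and 134, 129 and 107 CPM after 24 h (-1.02 ± 0.13, adjusted p = 9.84e-05). POLE2, a subunit of the leading-strand polymerase, went from 32.2, 23.0 and 30.3 to 10.8, 11.6 and 9.43 CPM (-1.42 ± 0.19). TIPIN, which with TIMELESS protects the fork and relays the ATR signal, went from 31.4, 22.1 and 30.3 to 10.4, 9.25 and 7.14 CPM (-1.64 ± 0.22, adjusted p = 0.000152). For each of these genes the 3 treated libraries all lay below the 3 DMSO libraries. With ribosomal protein mRNAs as the reference, 3 members rose and 10 fell, and the list stood at -0.67 relative to all genes. With 1 library left out in turn, 28 to 36 members fell.

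Many replication genes are transcribed through E2F sites, so the promoters of the list were searched. The promoters are those of RefSeq (GRCh38.p14), 250 bases before to 50 after the first listed start, and the motifs were TTTCCCGC, TTTGGCGC, TTCCCGCC and TTGGCGGG on both strands, which can overlap each other. A match was present in 23 of the 40 replication genes with a promoter in the table (57.5%), against 5.7% of all 27305 promoters and 9.49% of the 9481 protein-coding genes tested. Among genes called lower the share was 13.0% of 1350, and among genes called higher 7.51% of 799. It was 3.33% of 30 ribosome biogenesis promoters and 7.58% of 66 ribosomal protein promoters, although most members of those lists were called lower too. Shown here are the 200 bases upstream of the start, 5′ to 3′ on the gene's strand, of 3 genes of the list with matches in capitals and of CHAF1B, a chromatin assembly subunit of the list without a match. MCM6 (chr2:135876444-135876643, minus strand) holds 2 matches, MCM3 (chr6:52284743-52284942, minus strand) 3 of which 2 overlap, and PRIM1, the primase that starts each DNA strand (chr12:56752324-56752523, minus strand), 2 that overlap. CHAF1B lies on the plus strand at chr21:36385192-36385391.
MCM6: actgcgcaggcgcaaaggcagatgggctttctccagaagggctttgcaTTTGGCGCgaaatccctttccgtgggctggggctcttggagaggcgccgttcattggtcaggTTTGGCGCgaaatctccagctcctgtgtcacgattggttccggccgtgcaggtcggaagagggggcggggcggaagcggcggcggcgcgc
MCM3: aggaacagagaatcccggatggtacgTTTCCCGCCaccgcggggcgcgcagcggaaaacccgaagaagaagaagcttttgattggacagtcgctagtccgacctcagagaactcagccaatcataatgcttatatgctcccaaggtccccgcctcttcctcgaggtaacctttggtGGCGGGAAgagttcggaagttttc
PRIM1: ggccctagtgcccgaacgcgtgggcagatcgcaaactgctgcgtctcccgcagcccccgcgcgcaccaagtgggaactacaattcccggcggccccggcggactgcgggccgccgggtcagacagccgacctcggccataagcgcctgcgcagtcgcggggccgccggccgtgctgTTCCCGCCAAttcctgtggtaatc
CHAF1B: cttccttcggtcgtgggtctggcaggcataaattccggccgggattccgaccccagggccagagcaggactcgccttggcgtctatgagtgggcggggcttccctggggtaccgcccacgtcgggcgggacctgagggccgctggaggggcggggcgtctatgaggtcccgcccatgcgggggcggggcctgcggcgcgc
PRIM1 fell as well, from 17.9, 12.2 and 18.7 to 9.76, 8.08 and 7.26 CPM (-0.96 ± 0.29, adjusted p = 0.028), a call lost without DMSO replicate 1, DMSO replicate 3, treated replicate 2 or treated replicate 3. These matches are descriptions of letters in a window and not sites of binding. The share in a list is a property of the genes listed, whatever the treatment did, here and for the motifs below. Members that fell were not set apart from the others, and a part of E2F in the falls was not tested.

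Genes of the E2F and RB families were called mostly lower. Of 17 E2F factors, RB family members and related regulators, 1 rose and 9 fell, median -0.47 (4 and 0 under the ribosomal protein reference). E2F1, an activator of S-phase genes, had 61.8, 61.0 and 64.3 CPM in DMSO and 30.9, 29.2 and 33.9 CPM after 24 h (-0.99 ± 0.11, adjusted p = 1.98e-05), with no overlap between groups. E2F8, a repressor that is itself an E2F target, changed by -1.07 ± 0.24. The 1 member that rose was RBL2, the p130 pocket protein of quiescent cells, by 0.38 ± 0.10 (adjusted p = 0.0163), a call lost without DMSO replicate 1, DMSO replicate 3 or treated replicate 3. RB1 itself was 0.03 ± 0.11 with an adjusted p of 0.894. Of 11 genes that supply deoxynucleotides 4 fell and 1 rose (4 higher and 0 lower under the ribosomal protein reference); the fall was largest for RRM2, the small subunit of ribonucleotide reductase, from 128, 111 and 123 to 61.2, 55.2 and 63.5 CPM (-1.01 ± 0.12, adjusted p = 5.01e-05). Leaving out DMSO replicate 2 raised that count from 4 to 8.

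Inhibitors of the cyclin-dependent kinases rose. Of 8 CDK inhibitor genes 6 rose and 0 fell, with a median of 1.10. CDKN1A, which encodes p21, had 49.5, 30.5 and 46.3 CPM in DMSO and 164, 161.5 and 138 CPM after 24 h (1.88 ± 0.21, adjusted p = 2.92e-05). CDKN1C, which encodes p57, went from 2.89, 2.01 and 2.99 to 12.9, 13.2 and 9.47 CPM (2.17 ± 0.26, adjusted p = 5.19e-05). CDKN2B, which encodes the CDK4 and CDK6 inhibitor p15, went from 2.89, 4.26 and 3.03 to 13.2, 11.3 and 11.6 CPM (1.83 ± 0.22). In all 3 the lowest treated library was above the highest DMSO library; CDKN2B lies within an antisense RNA gene, and the sources used here do not give the strand setting of the counting. Of 18 cyclins, CDKs and CDC25 phosphatases 0 rose and 6 fell (7 and 0 under the ribosomal protein reference), a count that dropped to 1 without DMSO replicate 1, DMSO replicate 3 or treated replicate 3 and to 3 without treated replicate 1 or 2. CDK6, the partner of D-type cyclins, was a member whose fall (-0.61 ± 0.14) held in each of those fits. CCNB1, the mitotic cyclin B1, had 559.6, 481 and 546 CPM in DMSO and 547, 539.7 and 469 CPM after 24 h (-0.03 ± 0.11, adjusted p = 0.889), and its groups overlap.

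Fewer mitotic genes than replication genes passed the test. Of 36 mitotic kinase, checkpoint and anaphase genes 7 fell and 1 rose, with a median of -0.20, or -0.16 relative to all genes (13 higher and 0 lower under the ribosomal protein reference). Of 12 mitotic kinesins 0 were called by edgeR in either direction; at an unadjusted p under 0.05 there were 2 lower and 0 higher, and DESeq2 called 0. CDC20, the activator of the anaphase-promoting complex, went from 386, 347 and 404 to 315, 314 and 262 CPM (-0.35 ± 0.11, adjusted p = 0.0349), a small fall in which the groups do not overlap. KIF11, the bipolar spindle motor, had 207, 227 and 209 CPM in DMSO and 161, 157 and 201 CPM after 24 h (-0.31 ± 0.12, adjusted p = 0.0844). PLK1, the polo-like kinase of mitosis, was -0.26 ± 0.12 with an adjusted p of 0.123. The count of 7 falls dropped to 4 without DMSO replicate 1, DMSO replicate 3, treated replicate 2 or treated replicate 3. The promoters of the mitotic list were searched as well. The cell cycle homology region (CHR), TTTGAA or TTCGAA on either strand, was found in 20 of 26 mitotic promoters (76.9%) and 10 of 12 kinesin promoters (83.3%), but in 7.5% of the replication promoters and 10.9% of the protein-coding genes tested. It is in 16.6% of all promoters in the table. The 200 bases upstream of the starts of CDC20 (chr1:43358781-43358980) and of the spindle checkpoint kinase BUB1B (chr15:40160869-40161068), both on the plus strand, carry it in capitals.
CDC20: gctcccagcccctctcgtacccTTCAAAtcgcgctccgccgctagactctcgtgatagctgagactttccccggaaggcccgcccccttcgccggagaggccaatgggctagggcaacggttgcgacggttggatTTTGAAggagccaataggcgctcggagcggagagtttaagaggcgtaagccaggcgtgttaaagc
BUB1B: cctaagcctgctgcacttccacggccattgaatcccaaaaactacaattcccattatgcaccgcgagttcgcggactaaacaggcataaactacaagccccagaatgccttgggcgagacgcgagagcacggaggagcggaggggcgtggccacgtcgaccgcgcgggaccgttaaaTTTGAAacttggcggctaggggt
BUB1B changed by -0.27 ± 0.09 (adjusted p = 0.0473). Its call was lost when any 1 of the 6 libraries was left out, that of CDC20 when any but DMSO replicate 2 was, and with ribosomal protein mRNAs as the reference both values turned positive (0.31 and 0.23). Of 32 kinetochore and centromere genes 0 rose and 11 fell (9 and 1 under the ribosomal protein reference), among them CENPH (-1.28 ± 0.17) and ZWINT (-0.88 ± 0.10), with 7 left without DMSO replicate 3 or treated replicate 2. NCAPH, a condensin subunit, went from 105, 107 and 98.0 to 39.5, 41.5 and 46.6 CPM (-1.28 ± 0.17), below DMSO in all 3 libraries.

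**Figure D2:**
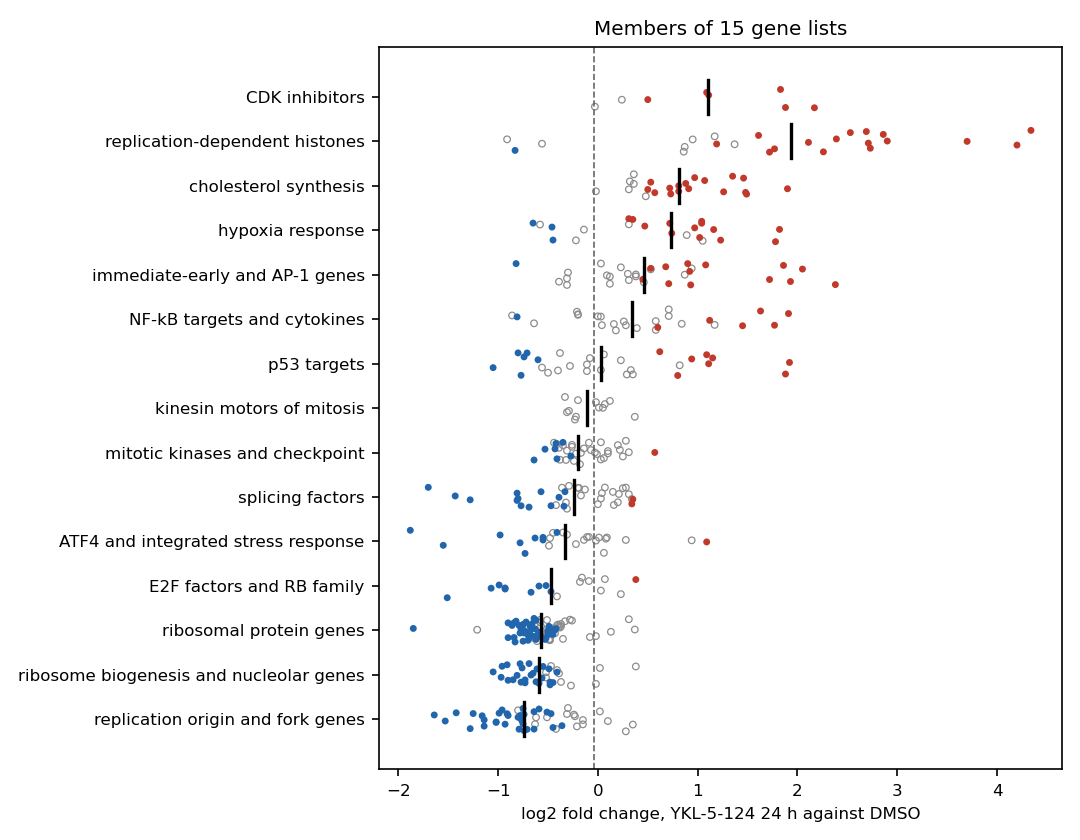
Log2 fold change of YKL-5-124 at 24 h against DMSO (horizontal axis) for the tested members of 15 gene lists (vertical axis); filled points were called higher (red) or lower (blue), open points were not called, the black bar is the list median and the dashed line the median of all genes, -0.04. With trimmed-mean scaling, replication genes (median -0.74) and ribosome biogenesis genes (-0.59) lie left of the line, and histones (1.94), CDK inhibitors (1.10) and cholesterol genes (0.81) right of it.

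Repair genes were called lower in smaller numbers. Of 31 tested genes of homologous recombination and the Fanconi pathway, 0 rose and 12 fell (median -0.44; 3 and 1 under the ribosomal protein reference), but between 4 and 7 fell when DMSO replicate 3 or any 1 of the treated libraries was left out. FANCE, a subunit of the Fanconi core complex, changed by -1.25 ± 0.20 and FANCI, which it helps to ubiquitinate, by -0.68 ± 0.11. Of 20 ATR checkpoint genes 8 fell and 0 rose (6 higher and 1 lower under the ribosomal protein reference), and those that fell included PKMYT1, an inhibitory kinase of mitotic entry (-1.03 ± 0.19).

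Histone genes rose in the same libraries in which replication genes fell. Of 31 replication-dependent histone genes listed, 24 were tested, 16 rose and 1 fell, with a median of 1.94. HIST1H2BJ had 3.73, 1.93 and 3.12 CPM in DMSO and 65.6, 61.1 and 34.7 CPM after 24 h (4.20 ± 0.36, adjusted p = 3.22e-06). HIST1H2AG went from 4.40, 2.59 and 3.12 to 46.7, 44.0 and 40.7 CPM (3.70 ± 0.29, adjusted p = 1.88e-06). HIST1H1C, a linker histone, went from 21.3, 15.7 and 21.4 to 107, 104 and 68.5 CPM (2.26 ± 0.25). HIST2H2BE went from 3.37, 3.17 and 3.83 to 22.5, 23.7 and 20.8 CPM (2.69 ± 0.15, adjusted p = 8.98e-08). In these 4 genes every treated library was above every DMSO library, and treated replicate 3 was the lowest of its group. The 1 member that fell was HIST1H1E (-0.83 ± 0.24, adjusted p = 0.0234), a call lost without DMSO replicate 2, DMSO replicate 3 or treated replicate 1. Messages of this class end in a stem-loop in place of a poly(A) tail when they are made in S phase, and some of these genes also give polyadenylated forms; the sources used here do not give how RNA was selected for the libraries. Many histone genes are near-identical copies, so which copy a read came from is uncertain. RP1-86C11.7, a long noncoding gene at chr6:27122657-27123221 (GRCh38) in the chromosome 6 region that holds the large histone cluster, went from 0.0888, 0.116 and 0.0843 to 2.10, 2.08 and 1.89 CPM (4.30 ± 0.59).

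Genes that make ribosomes were called lower. Of 35 ribosome biogenesis and nucleolar genes 0 rose and 25 fell, with a median of -0.59. GNL3, the nucleolar GTPase nucleostemin, had 303.5, 253 and 298 CPM in DMSO and 144, 139.8 and 129.5 CPM after 24 h (-1.05 ± 0.14, adjusted p = 0.000101). NPM1, the abundant nucleolar chaperone, went from 4166, 2924 and 4066 to 2251, 2106.5 and 1624 CPM (-0.90 ± 0.17, adjusted p = 0.00149). DKC1, the pseudouridine synthase of ribosomal RNA, changed by -0.97 ± 0.10, and NIP7, a factor of the large subunit, by -0.96 ± 0.10. DMSO replicate 2 was the lowest DMSO library for GNL3 and NPM1, yet above all 3 treated libraries. Of 82 ribosomal protein genes tested 0 rose and 45 fell (median -0.57; 9 and 9 under their own mRNAs as reference), with 25 or 26 falls when DMSO replicate 1, DMSO replicate 3 or treated replicate 3 was left out. RPL22L1, the paralog of RPL22, fell from 239, 127 and 229 to 67.9, 60.4 and 37.0 CPM (-1.85 ± 0.33, adjusted p = 0.00124). With the ribosomal protein mRNAs themselves as the reference, 1 biogenesis gene rose and 3 fell, and the list stood at -0.55 relative to all genes.

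The machinery of transcription itself changed in single members. CDK7 had 67.1, 54.3 and 67.3 CPM in DMSO and 75.4, 65.2 and 54.5 CPM after 24 h (0.05 ± 0.15, adjusted p = 0.861), and its groups overlap. CDK12 and CDK13, the elongation kinases, were 0.05 ± 0.18 (adjusted p = 0.875) and 0.15 ± 0.29 (adjusted p = 0.771). Of 9 tested genes of CDK7 and TFIIH 2 fell (3 higher and 1 lower under the ribosomal protein reference): GTF2H3, which encodes the p34 subunit of the TFIIH core, from 59.7, 63.3 and 71.0 to 29.5, 30.2 and 26.1 CPM (-1.18 ± 0.10, adjusted p = 4.81e-06), and GTF2H2, which encodes the p44 subunit, by -0.93 ± 0.17. GTF2H2 has near-identical copies in the genome, so its counts are uncertain. Of 24 transcription kinases and elongation factors 5 rose and 1 fell (11 and 0 under the ribosomal protein reference), with 2 rises without DMSO replicate 1 or DMSO replicate 3 and 3 without treated replicate 1 or treated replicate 2. HEXIM1, which holds the elongation kinase P-TEFb inactive, had 44.9, 36.8 and 46.3 CPM in DMSO and 103, 112 and 100.2 CPM after 24 h (1.30 ± 0.14, adjusted p = 2.2e-05). The treated libraries were all above 99 CPM and the DMSO libraries all under 47. CDK19, a Mediator kinase, rose by 0.92 ± 0.16.

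Several abundant genes of RNA processing fell. Of 36 splicing factors 13 fell and 2 rose (median -0.24; 11 higher and 3 lower under the ribosomal protein reference). SNRPA, a protein of the U1 particle, had 64.4, 57.7 and 57.6 CPM in DMSO and 17.6, 19.0 and 18.7 CPM after 24 h (-1.70 ± 0.12, adjusted p = 6.76e-07). SF3B3, of the U2 particle, went from 496, 436 and 426 to 153, 166 and 186.5 CPM (-1.43 ± 0.10), and HNRNPA1 from 1721.5, 1843 and 1762 to 705, 726 and 756 CPM (-1.28 ± 0.11). In each, the treated libraries lay close together and well below the DMSO libraries. CPSF6, a cleavage factor that sets the choice of poly(A) site, lay outside the lists and was named by the comparison with 4 h; it went from 154.5, 128.5 and 143 to 42.3, 42.0 and 40.7 CPM (-1.77 ± 0.09, adjusted p = 7.85e-08).

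Cholesterol synthesis genes rose. Of 23 tested, 17 rose and 0 fell, with a median of 0.81. HMGCS1, which makes HMG-CoA, had 62.7, 55.8 and 61.9 CPM in DMSO and 244, 239 and 189 CPM after 24 h (1.90 ± 0.14, adjusted p = 8.62e-07). MSMO1, a sterol methyl oxidase, went from 55.9, 35.3 and 47.4 to 143, 140.4 and 103 CPM (1.48 ± 0.19, adjusted p = 8.72e-05). INSIG1, which retains the SREBP activator in the endoplasmic reticulum when sterol is plentiful, rose by 1.26 ± 0.18. No treated library of these genes overlaps a DMSO library. Fatty acid synthesis, the other arm of SREBP control, held 1 of 14 genes that rose and 0 that fell, median 0.11. The 7.14% that rose was near the 8.92% of all genes tested. With upper-quartile factors 3 rose, with library totals 3 and under the ribosomal protein reference 9. SREBP acts on promoters together with NF-Y, which reads CCAAT. That motif, on either strand, was in 15 of the 18 cholesterol promoters in the table (83.3%), 36.4% of the protein-coding genes tested and 35.7% of all promoters. The 200 bases upstream of MSMO1 (chr4:165327469-165327668, plus strand, 4 matches) and INSIG1 (chr7:155297678-155297877, plus strand, 1 match) show the matches in capitals.
MSMO1: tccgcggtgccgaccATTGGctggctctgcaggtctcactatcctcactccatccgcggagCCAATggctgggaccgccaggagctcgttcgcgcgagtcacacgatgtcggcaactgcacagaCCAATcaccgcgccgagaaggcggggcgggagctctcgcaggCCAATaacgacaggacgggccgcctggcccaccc
INSIG1: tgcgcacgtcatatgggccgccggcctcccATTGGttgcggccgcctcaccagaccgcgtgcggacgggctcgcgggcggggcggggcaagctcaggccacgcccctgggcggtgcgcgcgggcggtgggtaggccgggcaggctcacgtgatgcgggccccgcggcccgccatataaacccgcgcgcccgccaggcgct
The mitotic promoters above held CCAAT about as often, in 20 of 26, and of those genes' list 1 rose and 7 fell.

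**Figure D3:**
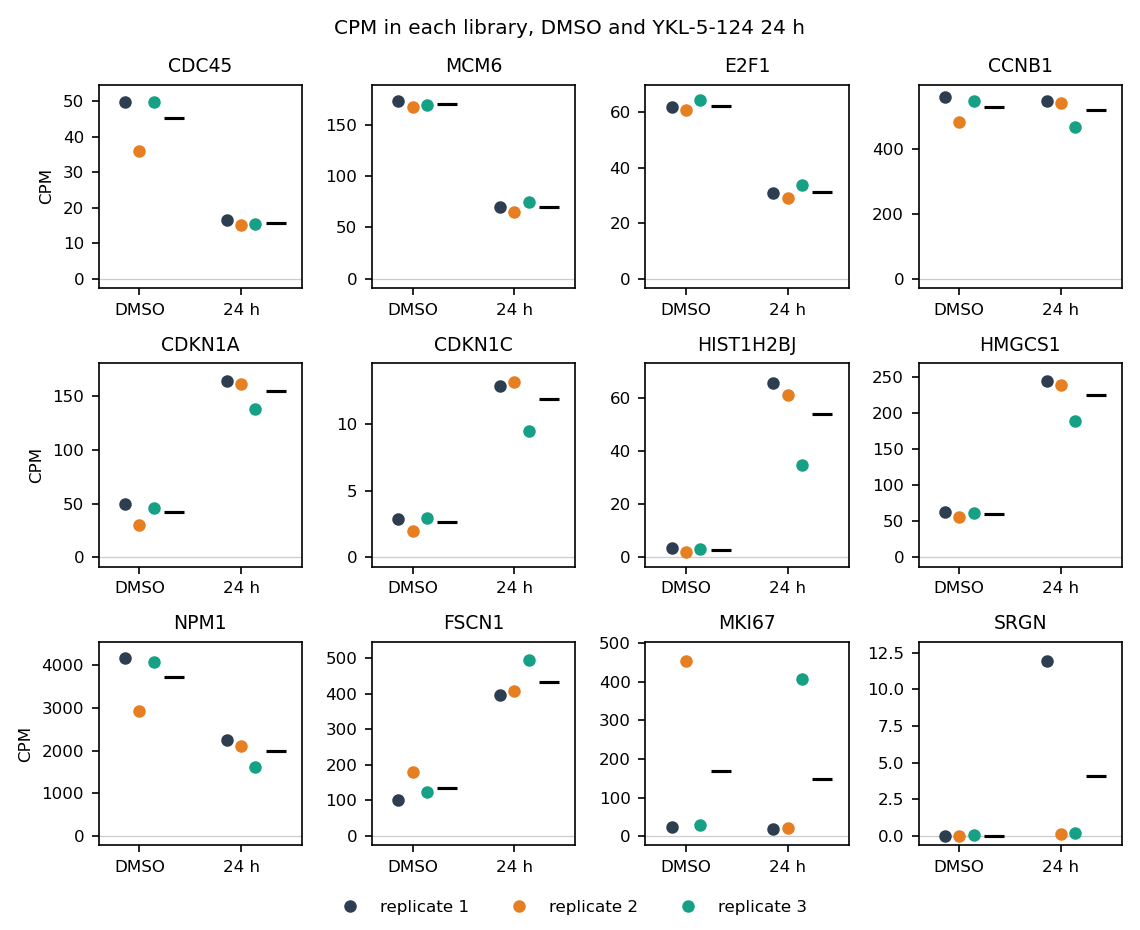
CPM in each of the 6 libraries (vertical axes, each from 0) for 12 genes, DMSO on the left of each panel and YKL-5-124 at 24 h on the right; points are coloured by replicate number and the short black bar is the group mean. MKI67 shows 1 high library in each group (454 and 408 CPM), SRGN 1 high library in the treated group.

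Stress programmes moved in different directions. Of 22 hypoxia response genes 13 rose and 3 fell (15 and 0 under the ribosomal protein reference; 1 fell without DMSO replicate 1, DMSO replicate 3 or treated replicate 3), with a median of 0.73: PFKFB4, a regulator of glycolytic flux, rose by 1.82 ± 0.25, ANKRD37 by 1.16 ± 0.25, and ADM, the vasodilator peptide adrenomedullin, fell (-0.65 ± 0.15). MIR210HG, the host transcript of the hypoxia-linked miR-210, went from 0.355, 0.116 and 0.421 to 3.18, 2.04 and 1.62 CPM (2.94 ± 0.46). Of 17 glycolytic enzymes 1 rose and 4 fell (10 and 0 under the ribosomal protein reference). OSGIN1, a target of NRF2, was among the largest falls of all, from 55.3, 44.6 and 55.9 to 13.6, 12.6 and 12.5 CPM (-2.01 ± 0.25, adjusted p = 6.44e-05), and GCLM, the modifier subunit of glutathione synthesis, changed by -1.48 ± 0.17. In all, 6 of 24 NRF2 targets fell and 1 rose, against 9 higher and 2 lower under the ribosomal protein reference; 2 or 3 fell without DMSO replicate 1, DMSO replicate 3, treated replicate 1 or treated replicate 3. Of 26 genes of ATF4 and the integrated stress response 9 fell and 1 rose (7 higher and 2 lower under the ribosomal protein reference). CHAC1, which degrades glutathione, went from 16.9, 6.62 and 14.2 to 4.30, 3.33 and 2.57 CPM (-1.88 ± 0.41, adjusted p = 0.00432), and PSAT1, of serine synthesis, changed by -0.98 ± 0.15. Without DMSO replicate 1, DMSO replicate 3 or treated replicate 3 the count of ATF4 falls was 4. HSPA1A, the inducible HSP70, rose from 35.1, 70.8 and 38.0 to 173, 176.5 and 176 CPM (1.87 ± 0.24), though its near-identical copy HSPA1B (1.42 ± 0.27) may share reads with it. The constitutive chaperone HSP90AB1 fell from 3605, 3052.5 and 3335 to 2108.5, 2164 and 2078 CPM (-0.65 ± 0.09).

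Targets of p53 split: 8 of 29 rose, 6 fell and the median was 0.03 (17 and 1 under the ribosomal protein reference). Besides CDKN1A, TP53I3 rose by 1.15 ± 0.19, whereas the repair gene DDB2 (-1.05 ± 0.18), the death receptor FAS (-0.74 ± 0.16) and the apoptosis effector BAX (-0.60 ± 0.12) fell. The count of rises was 4 or 5 without DMSO replicate 1, DMSO replicate 3, treated replicate 1 or treated replicate 2. In the BCL2 family BMF, a BH3-only activator of apoptosis, rose (1.69 ± 0.44; not called without DMSO replicate 3 or treated replicate 1), and BCL2L2, a survival member, fell (-0.85 ± 0.19). MCL1, a short-lived survival protein, had 464.5, 408.5 and 463 CPM in DMSO and 432, 423 and 407 CPM after 24 h (-0.08 ± 0.12, adjusted p = 0.684), with overlapping groups.

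Immediate-early genes were higher at 24 h. Of 31 immediate-early and AP-1 genes 13 rose and 1 fell (median 0.46), with 8 rises left without treated replicate 1 or treated replicate 2. JUNB had 5.64, 4.57 and 6.40 CPM in DMSO and 32.6, 34.1 and 19.4 CPM after 24 h (2.38 ± 0.23, adjusted p = 1.01e-05). FOS went from 2.49, 0.851 and 1.73 to 9.45, 8.46 and 2.80 CPM (2.05 ± 0.41, adjusted p = 0.00241), with treated replicate 3 close to the highest DMSO library. ID2, an inhibitor of helix-loop-helix factors, rose by 1.93 ± 0.35. The member that fell was JUN, the partner of FOS in AP-1, from 109.6, 146 and 119.6 to 64.2, 75.2 and 73.7 CPM (-0.82 ± 0.18, adjusted p = 0.00495). Of 26 NF-kB targets and cytokines 6 rose and 1 fell, among them the adhesion molecule ICAM1 (1.45 ± 0.21) and TNFAIP2 (1.63 ± 0.18). Of 27 interferon-stimulated genes 6 rose, including ISG15 (1.10 ± 0.26) and IFI6 (1.03 ± 0.13), and 3 fell, including DDX60 (-0.83 ± 0.15). The 22.2% that rose compares with 8.92% of all genes tested. The 11.1% that fell was near the 12.7% of all genes, and the list median was -0.07. Under the ribosomal protein reference 12 rose and 0 fell, and 1 fell without DMSO replicate 1, DMSO replicate 3, treated replicate 2 or treated replicate 3.

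The largest single rises, beyond histones and SRGN, were in genes low in DMSO. FGFR3, a fibroblast growth factor receptor at chr4:1793307-1808872 (GRCh38), had 1.07, 2.21 and 1.85 CPM in DMSO and 18.2, 15.9 and 19.9 CPM after 24 h (3.38 ± 0.24, adjusted p = 8.62e-07). PDGFB, a platelet-derived growth factor chain, went from 0.932, 1.70 and 0.843 to 8.89, 10.2 and 14.8 CPM (3.27 ± 0.46, adjusted p = 0.000188). DLL4, a Notch ligand, went from 0.932, 0.58 and 0.927 to 6.93, 5.33 and 6.31 CPM (2.93 ± 0.42), and CRISPLD2, a secreted protein, from 0.533, 0.542 and 0.463 to 7.10, 4.54 and 10.3 CPM (3.82 ± 0.32). HAP1 (3.90 ± 0.44), IER5L (3.14 ± 0.34), SEMA3G (3.06 ± 0.52), FAM46C (2.97 ± 0.43) and MEIS3 (2.92 ± 0.45) completed the group; PIPOX (3.60 ± 0.42) overlaps PHF12 on the other strand. By amount of RNA the leading rises were the actin bundler FSCN1, from 101, 179 and 124 to 397, 408 and 496 CPM (1.69 ± 0.22), and the nuclear lamina gene LMNA, from 228, 289.9 and 270.2 to 527, 575 and 535.5 CPM (1.05 ± 0.11). DMSO replicate 2 was the highest DMSO library in both, still below every treated library.

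Among the largest falls, ALKBH8, a tRNA methyltransferase at chr11:107502726-107565746, went from 28.9, 24.9 and 26.5 to 6.93, 7.50 and 6.79 CPM (-1.92 ± 0.14, adjusted p = 8.62e-07). S1PR1, a sphingosine 1-phosphate receptor, went from 17.7, 11.5 and 14.1 to 3.99, 3.79 and 3.75 CPM (-1.90 ± 0.20, adjusted p = 1.53e-05). NOX3 (-2.54 ± 0.48), LRRN4 (-2.32 ± 0.46), IL31RA (-2.01 ± 0.27), PPARGC1B (-1.93 ± 0.38), MOB3B (-1.91 ± 0.28) and PEAR1 (-1.85 ± 0.28) fell as well, as did TLR6 (-2.42 ± 0.47) and DGKG (-2.20 ± 0.38), which overlap TLR1 and ETV5. IGFBP3, which binds insulin-like growth factors, changed by -1.60 ± 0.11. Of 20 tested integrin and laminin genes 2 rose and 5 fell, with ITGB3 higher (1.58 ± 0.36) and ITGA6 lower (-0.64 ± 0.16). The 10.0% that rose was near the 8.92% of all genes tested, and the 25.0% that fell compares with 12.7%. With 1 library left out in turn, 1 to 4 rose and 4 to 5 fell. Under the ribosomal protein reference 4 rose and 1 fell. Among noncoding genes LINC00707 fell most, from 3.51, 3.13 and 3.33 to 0.49, 0.25 and 0.316 CPM (-3.20 ± 0.32). SNHG4, a snoRNA host gene that overlaps SIL1, went from 11.8, 20.2 and 11.9 to 1.96, 1.83 and 3.08 CPM (-2.68 ± 0.24).

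Genes of mitochondria and protein turnover were counted in the same way, beside 8.92% higher and 12.7% lower among all genes tested. Of 13 mitochondrially encoded mRNAs edgeR called 0, 0 at an unadjusted p under 0.05 as well, with a median of 0.01, and DESeq2 called 0; 3 were higher under the ribosomal protein reference. Of 78 nuclear respiratory chain genes 1 rose and 8 fell (54 and 0 under the ribosomal protein reference). The 10.3% that fell was under the share of all genes, and the list median was -0.02 relative to all genes. The 8 falls became 3 without treated replicate 2, 4 without DMSO replicate 1 or DMSO replicate 3 and 5 without treated replicate 3. Of 25 endoplasmic reticulum chaperones and XBP1 targets 1 rose (4.0%) and 3 fell (12.0%, near the share of all genes). Library totals gave 6 and 1, and the ribosomal protein reference 11 and 0. Of 30 lysosome and autophagy genes 3 rose (10.0%, near the share of all genes) and 0 fell, with 9 rises under upper-quartile factors, 10 with library totals and 17 under the ribosomal protein reference. NEU1, the lysosomal sialidase, was the largest of those, from 20.4, 14.1 and 17.4 to 56.1, 53.8 and 52.7 CPM (1.65 ± 0.14). Of 31 proteasome subunits 0 rose and 7 fell (12 and 0 under the ribosomal protein reference), or 15 without DMSO replicate 2. By abundance, the share of genes called lower went from 3.01% to 19.6% between the lowest and the highest of 5 equal bins of mean CPM. The share called higher went from 9.3% to 7.5%. The median standard error went from 0.51 to 0.13 over the same bins, so the power to call a gene differed between them. Long intergenic noncoding genes were called higher in 61 (10.8%) and lower in 20 (3.55%) of 564. Protein-coding genes were called higher in 1091 (8.93%) and lower in 1731 (14.2%) of 12212. The median standard errors of these 2 classes were 0.44 and 0.19, so their shares carry the same limit.

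The 4 h libraries, at the same dose, were set against the 24 h libraries directly. At 24 h against 4 h, 1333 genes were higher (9.22%) and 1716 lower (11.9%), whereas 4 h against DMSO gave 8 higher (0.0553%) and 67 lower (0.463%). Both the 4 h and the 24 h values against DMSO rest on the same DMSO libraries. No DMSO library is labelled with either time. Time in culture and time in the compound therefore cannot be told apart between the 24 h and 4 h libraries. Replication genes were lower at 24 h than at 4 h in 28 of 48 with 0 higher, histones higher in 16 of 24 and lower in 0, cholesterol genes higher in 15 of 23 and lower in 0, and CDK inhibitors higher in 6 of 8 and lower in 0. Immediate-early genes were higher at 24 h than at 4 h in 23 of 31 and lower in 0, with a median of 0.94. Part of that difference lay in values under DMSO at 4 h. The list median against DMSO was -0.53 at 4 h and 0.46 at 24 h. At 4 h 24 of its 31 members were below 0, with 3 called lower (9.68%, against 0.463% of all genes) and 0 higher. BHLHE40, a repressor of the clock and hypoxia circuits, showed the turn most clearly: 18.3, 18.1 and 19.3 CPM in DMSO, 9.18, 9.26 and 9.55 CPM at 4 h and 37.2, 36.9 and 35.0 CPM at 24 h. It was called lower at 4 h (-0.99 ± 0.09) and higher at 24 h against DMSO (0.97 ± 0.09), and 24 h against 4 h was 1.96 ± 0.09 (adjusted p = 1.12e-08). FOS had 2.71, 1.59 and 1.72 CPM at 4 h, within or near the DMSO range, and differed by 1.78 ± 0.40 between the times. JUN stayed under DMSO at both times, with 44.3, 54.7 and 70.0 CPM at 4 h. CPSF6 had 165, 164 and 151 CPM at 4 h, above or within the range of DMSO, and was -1.94 ± 0.09 at 24 h against 4 h.

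**Figure D4:**
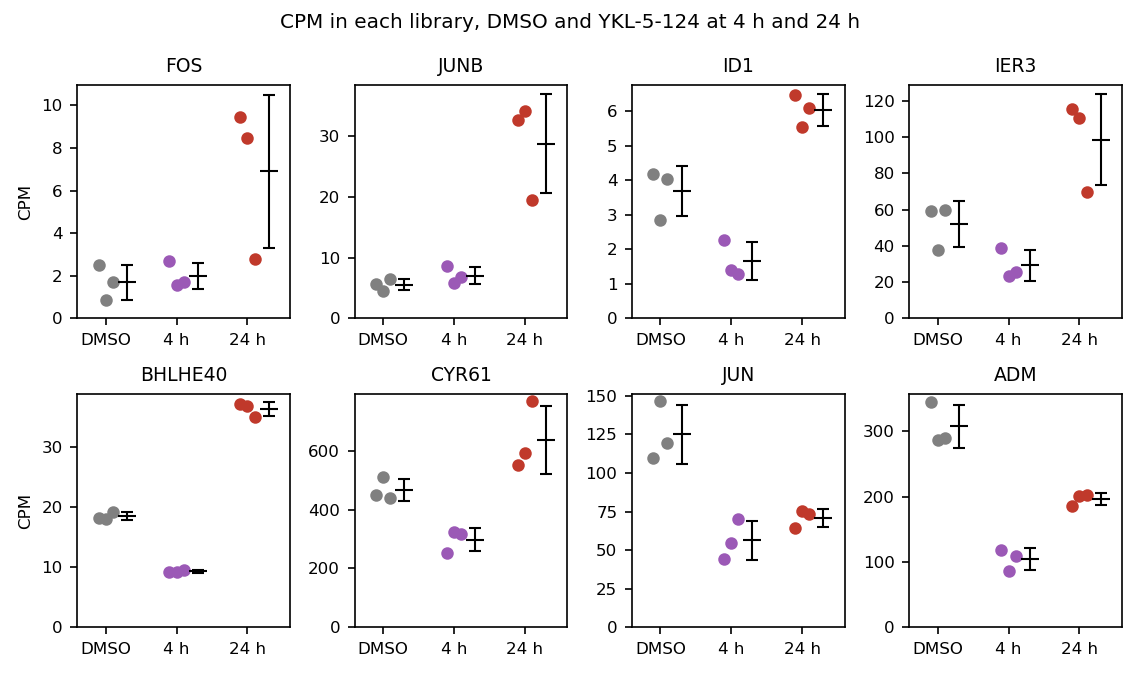
CPM in each library (vertical axes, each from 0) for 8 genes of the immediate-early and hypoxia lists in DMSO and in YKL-5-124 at 4 h and 24 h, with the bar at the mean ± SD, n = 3 libraries. BHLHE40 is lowest at 4 h and highest at 24 h, FOS and JUNB overlap DMSO at 4 h and lie above it at 24 h, and JUN lies below DMSO at both times.

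THZ1 and YKL-5-124 were both given at 100 nM for 24 h, and the 2 compounds were compared directly as 1 pair. Between them 6376 genes were higher with YKL-5-124 (44.1%) and 4601 lower (31.8%), and library totals gave 9927 and 1998. The median of all genes in this contrast was 0.39, 0.07 with relative log expression factors, 1.66 with library totals and 3.15 with ribosomal protein mRNAs as the reference, so single values carry that uncertainty. CCNB1 had 43.0, 56.7 and 52.2 CPM with THZ1 and was 3.36 higher on the log2 scale with YKL-5-124 (3.36 ± 0.12, adjusted p = 6.83e-12). KIF11 (3.82 ± 0.14), PCNA (3.47 ± 0.15) and CDK7 (3.69 ± 0.18) were higher with YKL-5-124 too. MCL1 was 1.82 ± 0.13 in the same direction. With trimmed-mean scaling JUNB (-4.14 ± 0.24), FOS (-5.70 ± 0.41) and BHLHE40 (-3.50 ± 0.09) were lower with YKL-5-124. The size of these falls depends on the scaling and is smaller under the ribosomal protein reference, where the median of all genes is 3.15. Mitotic kinesins were higher with YKL-5-124 in 11 of 12 and lower in 1, and mitochondrially encoded mRNAs lower in 13 of 13 except with ribosomal protein mRNAs as the reference, which called 1 higher and 0 lower.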

How the data were processed

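The deposited table held raw read counts per gene for 15 libraries of PATU-8988T cells; per the submitters' processing notes the authors used STAR 2.6.1d, featureCounts 1.5.0-p3 and DESeq2 1.24.0 with the GRCh38 build. The sources used here do not give the strand setting or the selection of RNA. Gene names and coordinates are those of the deposited table. Genes passing filterByExpr (minimum count 10, minimum total 15) were kept. All 15 libraries were fitted together by group in edgeR 4.0.16 (R 4.3.3; trimmed-mean scaling; quasi-likelihood F test; 10 residual degrees of freedom), with Benjamini-Hochberg adjustment over the 14461 genes tested and a threshold of 0.05. CPM are counts per 1000000 after that scaling, except for markers of the line and of other cell types, which use uncorrected totals. Standard errors were taken from the fold change and its F value. The scripts were tested on simulated counts.

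Alternatives were other scalings (relative log expression, upper quartile, library totals, ribosomal protein mRNAs as reference), DESeq2 1.42.0, other filters, a fit of only the groups compared, a length covariate, a replicate block and each library left out. The 2 libraries that stood apart left out together, and promoters with a single listed start, were added after seeing the data. Lists were described by counts and medians, with no set test. Genes were named by rule: the 15 largest rises and falls among called protein-coding genes (mean CPM 2 or more, groups that do not overlap), the 4 largest changes in CPM each way, the 3 largest each way among other genes, up to 3 called members each way of 54 lists, CDK7, CDK12 and CDK13, and the 6 largest differences each way in the other comparisons. The other genes named were chosen after their values were seen, among them MKI67, MCM2, MCM3, MCM6, PCNA, PRIM1, CCNB1, CDC20, BUB1B, PLK1, KIF11, INSIG1, MCL1, BMF, RB1, HIST1H1C and HIST2H2BE. Members and lists were chosen with earlier results of these data known. Some genes the rule names are not reported here. Of the genes named by rule 60 of 221 overlap another tested gene. Replicate numbers of the labels were not read as pairs, although libraries numbered 1 deviated from their groups in similar ways. In the DMSO and 24 h groups, each pair of replicates differed by more than counting noise.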

Additional observations from a re-analysis of the deposited data

Results flagged for a closer look

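In all, 7 genes were called in opposite directions against DMSO at 4 h and at 24 h of YKL-5-124 (edgeR, adjusted p under 0.05). Both comparisons share the DMSO libraries, and choosing genes by opposite calls fixes the difference between the times, so the values are given as a description. Of these 7 genes, 6 were lower at 4 h and higher at 24 h. BHLHE40 differed by 1.96 between the times on the log2 scale, JMJD6, a hydroxylase that acts on splicing factors, by 1.45, and INTS6, a subunit of the Integrator complex of transcription, by 1.14. CYR61, a YAP target, had 449, 510.4 and 441 CPM in DMSO, 253, 324 and 317 CPM at 4 h and 549.8, 591 and 768 CPM at 24 h, a difference of 1.09. CREBZF differed by 1.05 and ANKLE2, which acts in reassembly of the nuclear envelope, by 0.88. ZFR, a zinc finger RNA-binding protein, went the other way (-0.88), with 0.50 at 4 h and -0.38 at 24 h against DMSO. INTS6 overlaps SERPINE3, and BHLHE40 overlaps its antisense gene, on the other strand. The calls at 24 h against DMSO were lost with 1 library left out for 6 of the 7 genes: INTS6 without any 1 of the 6 libraries, JMJD6 without any but treated replicate 3, CREBZF without any but DMSO replicate 2 and treated replicate 3, CYR61 without DMSO replicate 1, DMSO replicate 3 or treated replicate 3, ANKLE2 without DMSO replicate 3 or treated replicate 3, and ZFR without DMSO replicate 3 or treated replicate 2. BHLHE40 was called in each of those fits.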

How the results depend on the processing

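The counts of calls in YKL-5-124 at 24 h against DMSO were 1290 higher and 1839 lower. They kept within 1.5 times under relative log expression and upper-quartile factors, DESeq2, other filters and a fit of only the groups compared. A length covariate gave 2604 and 3558 (2651 and 3466 for 24 h against 4 h). Library totals gave 2093 and 1186, 2286 and 1044 against 4 h, and 9927 and 1998 against THZ1. Ribosomal protein mRNAs as the reference gave 5125 and 199, 6776 and 131, and 12946 and 277 in the same order. Without DMSO replicate 2 and treated replicate 3 the higher count was 778. With 1 library left out in turn, the counts against DMSO ranged from 766 to 1243 higher and 1166 to 2011 lower, and those against 4 h from 873 to 1025 higher and 1195 to 1379 lower, the lowest higher count arising without treated replicate 2 or 4 h replicate 3. The cause of these differences was not tested, except that leaving libraries out lowers the number of libraries tested.

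The replicate numbers of the labels were tried as a replicate block, which gave 1628 higher and 2352 lower. Deviations of same-numbered libraries correlated at 0.674, -0.634 and -0.741 between the 2 groups. Between the 24 h and 4 h libraries of YKL-5-124 they correlated at 0.759, -0.609 and 0.514. Between YKL-5-124 and THZ1 at 24 h the values were 0.443, -0.166 and 0.411. Replicate 1 was thus positive each time and replicate 2 negative. Of 15 libraries 6 were closest to a library of their own number. The sharing by number is partial, and the numbers are not read as pairs.

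Single genes near 0 changed sign. MKI67 was 0.06 with the block, -3.08 without treated replicate 3, 2.55 without DMSO replicate 2, 0.35 without treated replicate 1, 0.34 without treated replicate 2 and 0.43 with ribosomal protein mRNAs as the reference. CCNB1 was -0.10 without DMSO replicate 2, 0.01 without DMSO replicate 1, 0.04 without treated replicate 3, 0.02 with only the groups compared, 0.06 with upper-quartile factors, 0.12 with library totals and 0.56 with the ribosomal protein reference. MCL1 was 0.01, 0.07 and 0.51 under the last 3 of these. CDK7 was -0.05 without DMSO replicate 2, -0.07 without treated replicate 1 and 0.16 without treated replicate 3. CDK12 was -0.06 and CDK13 -0.02 without DMSO replicate 1, -0.08 and -0.05 without treated replicate 3, and 0.24 and 0.49 without DMSO replicate 2. RB1 was -0.03 without DMSO replicate 2 and -0.08 without it and treated replicate 3. With the ribosomal protein reference PLK1 was 0.32, KIF11 0.30, CDC20 0.23, BUB1B 0.31 and ZFR 0.20. Depth limits genes near or under 1 CPM, which rest on few counts. With promoters of a single listed start, an alternative chosen after seeing the data, the E2F share of replication genes was 60.0% of 30, the CHR share of mitotic genes 85.7% of 21 and the CCAAT share of cholesterol genes 85.7% of 14.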

Other observations

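Some smaller lists that the comparison above does not describe were counted as well. Among all genes tested 8.92% were called higher and 12.7% lower. Of 26 YAP and TEAD targets 3 rose and 3 fell (9 and 1 under the ribosomal protein reference). That was 11.5% each way, near the shares of all genes. There were 0 rises without DMSO replicate 1 or DMSO replicate 3 and 1 without treated replicate 3. F3, the tissue factor that starts coagulation, went from 7.55, 7.78 and 5.98 to 2.94, 2.29 and 3.63 CPM (-1.26 ± 0.21), and its groups do not overlap. Of 23 tested genes of ERK output and feedback 5 rose and 2 fell (10 and 0 under the ribosomal protein reference), with EPHA2, an ephrin receptor, higher (0.83 ± 0.12) and PHLDA1 higher (0.84 ± 0.14); 2 or 3 rose without DMSO replicate 3, treated replicate 1 or treated replicate 2. Of 6 metallothionein and zinc genes 3 fell and 0 rose (0 and 0 under the ribosomal protein reference), among them MT2A, a metal-binding protein, from 606, 600.3 and 769.9 to 406, 398 and 271 CPM (-0.88 ± 0.14). SLC30A1, a zinc exporter, was another of the 3 (-0.76 ± 0.18). In the MYC and MAX network MXD4, which competes for MAX, rose from 36.3, 46.3 and 39.6 to 81.3, 80.0 and 78.5 CPM (0.97 ± 0.13). COL17A1, a collagen of hemidesmosomes in the integrin and laminin list, went from 1.51, 2.63 and 2.19 to 0.56, 0.583 and 0.71 CPM (-1.77 ± 0.31). ABCB10, a transporter of the mitochondrial inner membrane, went from 78.5, 71.6 and 74.9 to 44.7, 43.1 and 39.0 CPM (-0.83 ± 0.09).

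Markers of other cell types were low in these libraries. Immune markers summed to 7.48 CPM of raw totals in treated replicate 1, 1.69 and 1.73 in the other treated libraries and 1.22 to 1.32 in DMSO. Fibroblast and stellate markers summed to 13.3, 7.88 and 10.8 after 24 h and to 5.04 to 7.15 in DMSO, endothelial markers to 1.76 to 2.18 and 1.17 to 2.3, and islet markers to 1.58 to 2.5 and 1.41 to 2.84. Their part in the results was not tested.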
